A study of Mus musculus with 12 samples.

Results

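The circadian clock core genes examined here were Bmal1, Clock, Npas2, Nr1d1, Nr1d2, Per1, Per2, Per3, Cry1 and Dbp. These 10 genes were chosen by name from the 57180 genes of the liver tables, and all 10 passed the filter on low counts that kept 19350 genes. They were measured by RNA-seq in 12 livers, from 3 female and 3 male mice of each of 2 genotypes, called KO and Het. All mice of both genotypes lacked Csa (listed in the annotation as Ercc8) and had been injected as newborns in the brain ventricles with AAV9-CSA, a vector in which the ubiquitous CBA promoter drives a human CSA cDNA. Het mice were also Xpa+/- and were littermates matched in age. KO mice were the treated CX mice taken at the humane endpoint, with hunched posture and tremors, which the study's account of the mice describes as Csa-/- Xpa-/-, although the labels and its sequencing methods write Xpa+/+ for the KO group. Neither an age nor the hour of collection was given for any single liver in the sources used here. The mice were kept on a daily light and dark cycle. A liver is named by genotype, sex (F or M) and mouse number, as in Het_F_115.

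The clock of a liver cell is a feedback loop of transcription. BMAL1 pairs with CLOCK or NPAS2 and binds E-box sequences in the genes of its own repressors, the PER and CRY proteins, and in those of the nuclear receptors REV-ERB alpha and beta (Nr1d1 and Nr1d2), which repress Bmal1 and Npas2, and of the output factor DBP, which acts at D-box sequences. In mouse liver, Bmal1 and Npas2 transcripts are known for being high at the time of day when Dbp, Per3 and Nr1d1 transcripts are low, so that these genes report the phase of the tissue.

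The binding sequences of this loop were looked for by their letters in the members' own promoters, and the matches are shown so that the letters stand beside the values of the same genes. The window ran from 250 bases before to 50 bases after the start of the canonical transcript (genome build GRCm39, GENCODE M39 annotation), and both strands were read for the E-box CACGTG, the D-box TTANGTAA, the RORE half-site TAGGTCA and the cyclic AMP element TGACGTCA. No match overlapped another. Each is printed on the strand of its gene, with the motif in capitals.
Per1 E-box, chr11:68989234-68989263, plus strand: accccttaacgaCACGTGggccctcaattg
Cry1 E-box, chr10:85020961-85020990, minus strand: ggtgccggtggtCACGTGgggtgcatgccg
Per2 D-box, chr1:91387153-91387182, minus strand: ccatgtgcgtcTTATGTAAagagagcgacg
Per3 D-box, chr4:151129309-151129338, minus strand: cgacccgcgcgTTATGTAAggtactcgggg
Per3 D-box, chr4:151129262-151129291, minus strand: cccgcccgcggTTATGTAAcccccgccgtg
Dbp RORE half-site, chr7:45354312-45354340, plus strand: ttggccaaataTAGGTCAgtgtcccgcct
Per1 and Cry1 each held 1 E-box, which began 22 and 29 bases before the start. Per2 held 1 D-box and Per3 held 2, and Dbp held 1 RORE half-site. Of the 21770 promoters read in the same way, 7.81% held the E-box, 2.30% the D-box, 2.49% the RORE half-site and 2.44% the cyclic AMP element. No match to any of the 4 motifs was found in this window of Bmal1, Clock, Npas2, Nr1d1 or Nr1d2, which says only that these letters do not stand there.

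Gene counts summed to 30044812 at the least and 43634073 at the most in a liver, and for comparisons between livers levels are given as CPM, counts scaled by the TMM method to a library of 1000000. Xpa was lower in every KO liver (0.992 to 1.83 CPM) than in every Het liver (3.10 to 6.34 CPM), which went with the names KO and Het. Ercc8 counts were 5.10 to 8.68 CPM in Het and 14.8 to 34 CPM in KO livers. Over all genes, 4330 of 19350 (22.4%) were called for genotype, meaning a Benjamini-Hochberg adjusted p under 0.05 in edgeR's quasi-likelihood test over the mean of both sexes. In bulk liver, fewer cells of a type and less RNA per cell cannot be told apart.

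None of the 10 core clock genes was called for genotype, beside the 22.4% of all genes called. At an unadjusted p under 0.05 there was 1 member, Per1, beside 36.1% of all genes. In DESeq2, 1 member (Per1) was called, beside 26.1% of all genes. No member had KO and Het livers that did not overlap, which was so for 9.35% of all genes in either direction. The median log2 fold change of the members was 0.02, as was the median of all genes tested (0.02). Behind these averages stood a wide spread between single livers of 1 genotype, and 1 Het liver, Het_F_115, lay outside the range of the other 5 Het livers for 10 of the 10 members. Among all genes tested, 42.1% had Het_F_115 outside the range of the other Het livers, and the other 11 livers were outside the range of their own genotype for 1 to 5 members and 21.8% to 51.2% of all genes. Each value is therefore given liver by liver, and the genotype contrast of each member with and without Het_F_115.

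**Figure D1:**
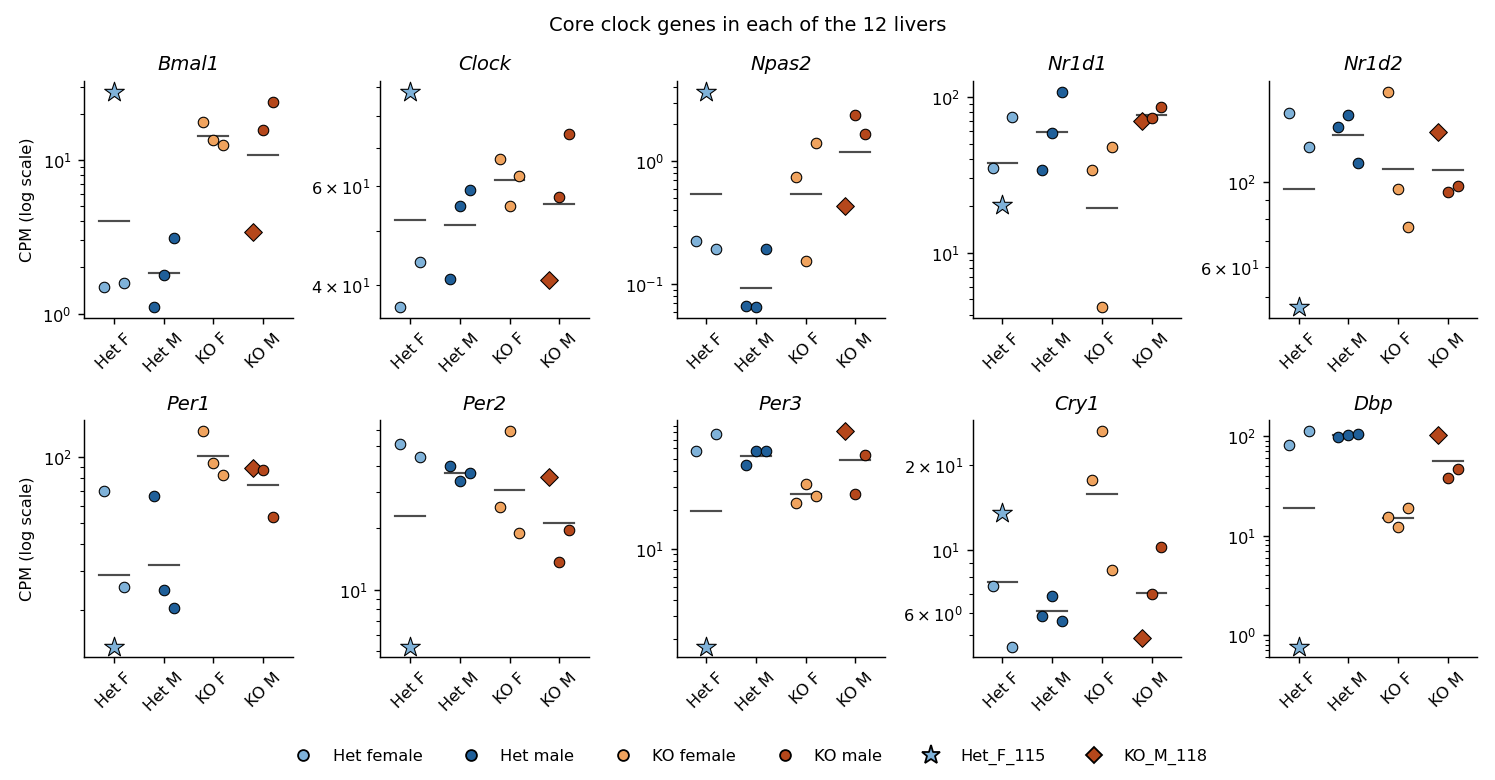
CPM (vertical axis, log scale) of each core clock gene in the 12 livers, by genotype and sex. Each point is 1 liver and each bar is the geometric mean of its group (n = 3). The star, Het_F_115, is above the other Het livers for Bmal1, Clock, Npas2 and Cry1 and below them for the other members, and the diamond, KO_M_118, is the KO liver lowest in Bmal1 (3.40 CPM) and highest in Dbp (103 CPM).

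The activator Bmal1 (ENSMUSG00000055116.9, chromosome 7 from 112806152 to 112914735) stood at 1.49, 27.9 and 1.58 CPM in Het_F_111, Het_F_115 and Het_F_126 and at 1.1, 1.79 and 3.10 CPM in Het_M_119, Het_M_125 and Het_M_137. It stood at 17.7, 13.6 and 12.5 CPM in KO_F_108, KO_F_112 and KO_F_123 and at 3.40, 15.7 and 23.9 CPM in KO_M_118, KO_M_122 and KO_M_136. Thus 5 Het livers were at or below 3.10 CPM and 5 KO livers at or above 12.5 CPM, with KO_M_118 just above the 5 Het livers and Het_F_115 above all KO livers. Over all 12 livers the log2 fold change of KO over Het was 1.65 ± 0.76 (SE, n = 6 and 6, 95% interval -0.04 to 3.35) and was not called (adjusted p = 0.148). Without Het_F_115 it was 3.00 ± 0.49 and was called (adjusted p = 0.00374), and Bmal1 was then the only member whose KO and Het livers did not overlap, as was so for 12.3% of all genes.

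Npas2 (ENSMUSG00000026077.16, chromosome 1 from 39232705 to 39402323), which can take the place of CLOCK beside BMAL1, was the member with the fewest reads. The Het females had, in the same order as for Bmal1, 8, 144 and 9 counts of it and the Het males 2, 2 and 6 counts. The KO females had 24, 5 and 53 counts and the KO males 19, 81 and 57 counts. The high liver was again Het_F_115, at 3.67 CPM, while the other Het livers lay between 0.0651 and 0.225 CPM and the KO livers between 0.155 and 2.36 CPM. The log2 fold change was 1.23 ± 0.77 (adjusted p = 0.283) over all livers. It was 2.42 ± 0.56 (adjusted p = 0.0143) without Het_F_115, from livers with single-digit Het counts, so that this size depends on the prior count of the fit.

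Clock (ENSMUSG00000029238.12, chromosome 5 from 76342860 to 76452846), the partner of BMAL1, varied least among the members. It measured 36.6, 88.3 and 44.1 CPM in Het females, 41.1, 55.4 and 59.1 CPM in Het males, 67.0, 55.4 and 62.6 CPM in KO females and 40.9, 57.4 and 74.1 CPM in KO males, in the order of mouse number. The genotypes overlapped over most of their range, and the log2 fold change was 0.14 ± 0.22 (95% interval -0.34 to 0.61, adjusted p = 0.683). Without Het_F_115, the liver with the highest Clock, it was 0.37 ± 0.16 (adjusted p = 0.118).

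The REV-ERB genes gave no common direction. Nr1d1 (ENSMUSG00000020889.12, chromosome 11 from 98658752 to 98666188) measured 35, 20.2 and 74.1 CPM in Het females and 33.9, 58.4 and 107.8 CPM in Het males. It measured 34.1, 4.46 and 47.6 CPM in KO females and 70.1, 73.3 and 86.3 CPM in KO males, so that KO_F_112 stood alone at the bottom. Nr1d2 (ENSMUSG00000021775.12, chromosome 14 from 4230545 to 4266624) measured 152, 47.1 and 124 CPM in Het females, 140, 150.2 and 112.2 CPM in Het males, 172, 95.9 and 76.2 CPM in KO females and 135, 94.0 and 97.4 CPM in KO males. Het_F_115 was the lowest Het liver for both genes, and for Nr1d2 the lowest of all 12. The log2 fold changes were -0.19 ± 0.52 (adjusted p = 0.822) for Nr1d1 and -0.10 ± 0.28 (adjusted p = 0.825) for Nr1d2, and both had intervals that spanned 0. Without Het_F_115 they were -0.37 ± 0.54 (adjusted p = 0.669) and -0.29 ± 0.21 (adjusted p = 0.348). Their sign did not hold when single livers were left out: Nr1d1 was at 0.12 without Het_F_126, 0.06 without Het_M_137 and 0.06 without KO_F_112, and Nr1d2 at 0.05 without Het_F_111 and 0.003 without KO_F_123.

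Among the repressors, Per1 (ENSMUSG00000020893.18, chromosome 11 from 68986035 to 69002300), a Period gene that also answers to hormones and cyclic AMP, had the smallest p of the members. Its levels were 70.2, 13.6 and 25.5 CPM in Het females and 66.2, 24.8 and 20.4 CPM in Het males. They were 132, 94.1 and 83.0 CPM in KO females and 89.4, 87.5 and 53.1 CPM in KO males. Thus 5 KO livers lay above every Het liver, and KO_M_136 lay below Het_F_111 and Het_M_119. The log2 fold change was 1.27 ± 0.42 (95% interval 0.33 to 2.21) with an adjusted p of 0.0564. Of 14 other settings of the analysis, 8 put Per1 below 0.05 (adjusted p from 0.00582 to 0.128 over the 14), in which 16.8% to 26.1% of all genes were called. It was called without Het_F_111 (log2 fold change 1.71, adjusted p = 0.0107) and without Het_M_119 (1.62, adjusted p = 0.0219), the Het livers with the highest Per1, where 18.5% and 18.8% of all genes were called, and it was not called without Het_F_115 (1.07, adjusted p = 0.0800).

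The other Period genes did not follow Per1. Per2 (ENSMUSG00000055866.10, chromosome 1 from 91343700 to 91387069) measured 51.0, 5.28 and 44.3 CPM in Het females, 40.1, 33.9 and 37.1 CPM in Het males, 25.3, 59.1 and 18.8 CPM in KO females and 35.3, 13.6 and 19.5 CPM in KO males. Per3 (ENSMUSG00000028957.13, chromosome 4 from 151081373 to 151129140) measured 56.8, 1.74 and 77.5 CPM in Het females, 44.7, 56.9 and 57.1 CPM in Het males, 22.6, 31.8 and 25.7 CPM in KO females and 81.7, 26.5 and 53.6 CPM in KO males. In each of these genes 4 KO livers lay below the 5 Het livers other than Het_F_115, while Het_F_115 lay below every KO liver. The log2 fold changes were -0.33 ± 0.50 for Per2 (adjusted p = 0.673) and -0.37 ± 0.63 for Per3 (adjusted p = 0.714). Without Het_F_115 they were -0.59 ± 0.32 (adjusted p = 0.218) and -0.66 ± 0.24 (adjusted p = 0.0818).

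Cry1 (ENSMUSG00000020038.11, chromosome 10 from 84967560 to 85021252), the cryptochrome that represses BMAL1 and CLOCK late in the cycle, measured 7.44, 13.6 and 4.56 CPM in Het females and 5.84, 6.90 and 5.60 CPM in Het males. It measured 17.8, 26.4 and 8.5 CPM in KO females and 4.87, 7.0 and 10.2 CPM in KO males. KO_F_108 and KO_F_112 were above all Het livers, and the KO males lay within the Het range, whose top was Het_F_115. KO_F_123 and KO_M_136 were also above the other 5 Het livers (4.56 to 7.44 CPM). The log2 fold change was 0.65 ± 0.31 (adjusted p = 0.162), and 0.89 ± 0.29 without Het_F_115 (adjusted p = 0.0561).

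The output factor Dbp (ENSMUSG00000059824.13, chromosome 7 from 45354512 to 45359627), whose transcript has one of the widest daily swings known in liver, measured 81.1, 0.765 and 112.2 CPM in Het females and 97.9, 104 and 106 CPM in Het males. It measured 15.3, 12.1 and 18.9 CPM in KO females and 103, 37.5 and 46.5 CPM in KO males. The 5 Het livers other than Het_F_115 lay close together, 5 KO livers lay below all of these, KO_M_118 lay among them, and Het_F_115 was far below every KO liver. The log2 fold change was -1.39 ± 0.75 (adjusted p = 0.212) over all livers and -1.69 ± 0.25 (adjusted p = 0.00177) without Het_F_115.

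**Figure D2:**
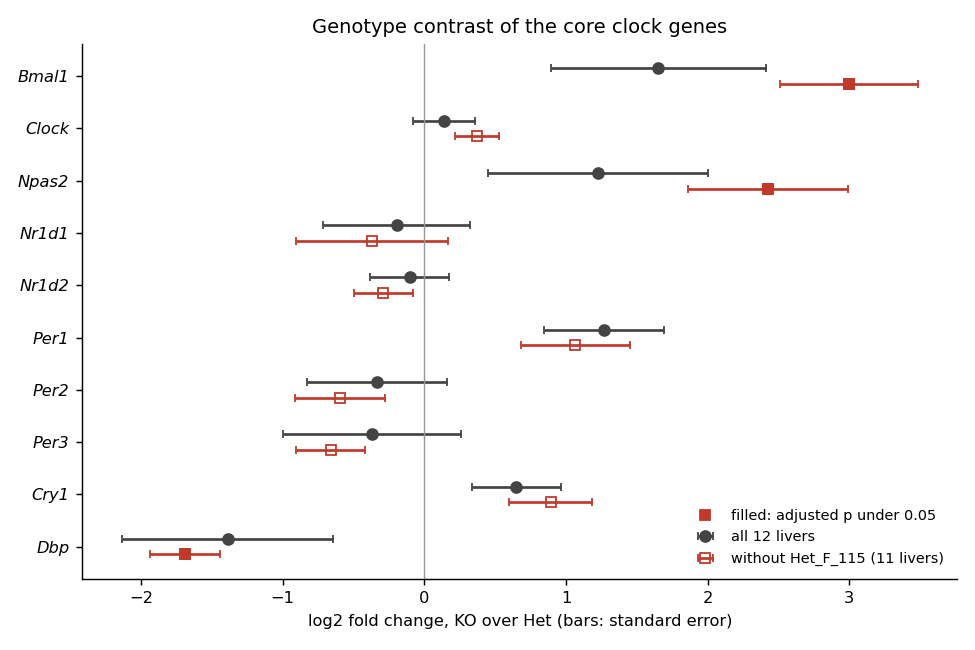
Log2 fold change of KO over Het (horizontal axis, bars are the standard error) for each core clock gene in all 12 livers (circles) and in 11 livers without Het_F_115 (squares, filled where the adjusted p is under 0.05). Without Het_F_115, Bmal1 (3.00), Npas2 (2.42) and Dbp (-1.69) passed the threshold and Per1 moved from 1.27 to 1.07.

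Without Het_F_115, 3 of the 10 members were thus called, Bmal1 and Npas2 as higher and Dbp as lower in KO livers, beside 20.2% of all genes tested in those 11 livers (10.4% higher and 9.74% lower). This liver was left out because its clock genes stood apart, which narrows the Het spread of these genes by construction. The calls without it thus describe only the other 11 livers. Leaving out any liver other than Het_F_115, Het_F_111 or Het_M_119 left 0 members called. KO_M_118, the KO liver whose Bmal1 and Dbp were nearest to those of most Het livers, was 1 of these, and without it the adjusted p was 0.115 for Bmal1.

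**Figure D3:**
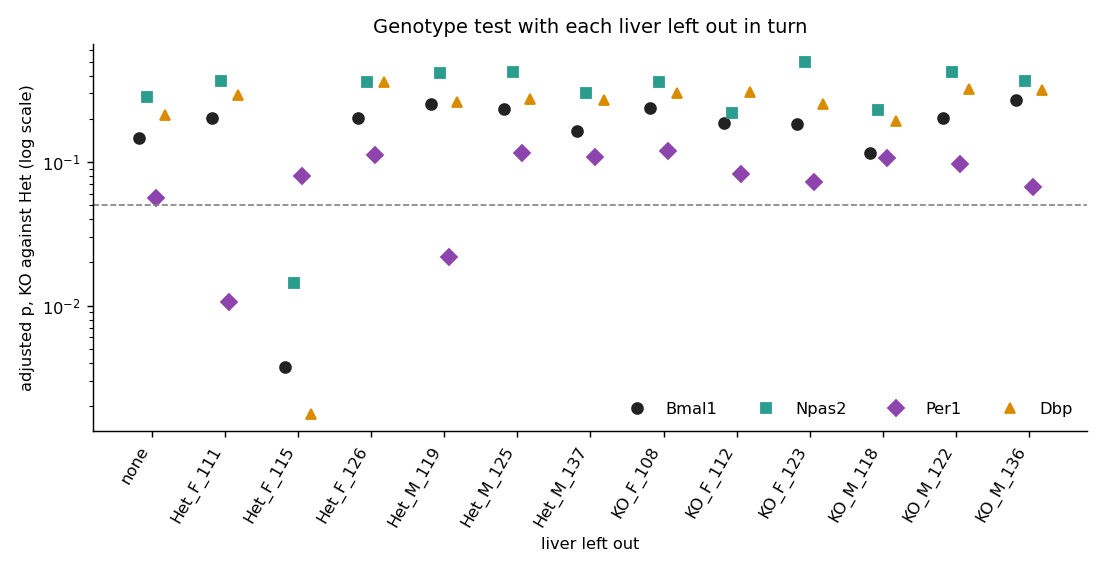
Adjusted p of the genotype contrast (vertical axis, log scale, dashed line at 0.05) for 4 core clock genes in all livers and with each liver left out in turn (horizontal axis). Bmal1 (0.00374), Npas2 (0.0143) and Dbp (0.00177) fell under the line only where Het_F_115 was left out, and Per1 only where Het_F_111 or Het_M_119 was.

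The ratio of Dbp to Bmal1, taken in TPM (an abundance scaled for transcript length and to the same total in every library), varied widely between the livers. It was 64.8 to 199.8 in the 5 other Het livers and 0.0446 in Het_F_115. It was 1.42, 1.74 and 2.36 in KO_F_108, KO_F_112 and KO_F_123, and 54.7, 4.16 and 3.29 in KO_M_118, KO_M_122 and KO_M_136. Thus 5 KO livers lay between Het_F_115 and the other Het livers, and KO_M_118 lay next to the Het livers, at the low end. This ratio was chosen after its genes' values were seen and was not tested.

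Per length, Dbp had the highest mean level in Het livers (42.8 ± 21.5 TPM, SD, n = 6), followed by Nr1d2 (25.6 ± 8.37), Nr1d1 (17.3 ± 10.2), Per1 (8.47 ± 5.54), Per3 (7.43 ± 4.07), Clock (6.15 ± 2.62), Per2 (4.45 ± 2.13), Cry1 (2.24 ± 1.16), Bmal1 (1.75 ± 3.1) and Npas2 (0.207 ± 0.380 TPM). Each gene overlapped with its neighbours in this order over the 6 livers, in part through Het_F_115 alone. Over the other 5 Het livers Dbp (45.5 to 60.8 TPM) lay above Nr1d2 (24.6 to 35.4 TPM) and Cry1 (1.42 to 2.19 TPM) below Per2 (3.91 to 6.96 TPM) and Clock (4.21 to 6.25 TPM). Bmal1 (0.228 to 0.821 TPM) lay below Cry1 and above Npas2 (0.0105 to 0.112 TPM) there, and its mean was 0.468 ± 0.216 TPM (SD, n = 5). In KO livers Nr1d2 (25.0 ± 9.83 TPM) and Per1 (23.3 ± 7.42 TPM) led, ahead of Dbp (19.0 ± 17.1 TPM) and Nr1d1 (16.7 ± 9.47 TPM). Bmal1 (4.10 ± 1.98 TPM) stood above Per2 (3.59 ± 1.90 TPM) and Cry1 (3.37 ± 2.0 TPM) there. Only Npas2 (0.0251 to 0.472 TPM), last in KO livers as well, did not overlap with its neighbour Cry1 (1.48 to 6.27 TPM).

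No member was called for sex (0 of 10, beside 1.02% of all genes). The smallest adjusted p was that of Cry1 (0.252), with a log2 fold change of males over females of -0.86 ± 0.32 (95% interval -1.56 to -0.17). For the interaction (the male less the female difference between genotypes), 0 of 10 were called beside 0.0465% of all genes. At an unadjusted p under 0.05 there was 1 member in each of these tests, Cry1 for sex and Npas2 for the interaction (3.96 ± 1.59, adjusted p = 0.492), beside 13.8% and 9.28% of all genes. DESeq2 called 0 members in either, beside 3.73% of all genes for sex and 0.822% for the interaction. Without Het_F_115 the interaction of Npas2 was 1.54 ± 1.17 (adjusted p = 0.712), and 0 of 10 members were called for sex or for the interaction, beside 0.639% and 0.026% of all genes. At an unadjusted p under 0.05 there were then Dbp for sex (1.04 ± 0.25, adjusted p = 0.139) and Dbp (1.93 ± 0.49, adjusted p = 0.334) and Per3 (1.36 ± 0.49, adjusted p = 0.503) for the interaction, beside 11.3% and 8.69% of all genes. The sign of the sex difference turned without this liver in Bmal1 (from -1.18 to 0.16), Clock (from -0.11 to 0.12), Npas2 (from -1.13 to 0.07) and Nr1d2 (from 0.12 to -0.07), none of them called. Within females 0 of 10 members were called for genotype (11% of all genes), and 2 had an unadjusted p under 0.05 (29% of all genes), Per1 (1.5 ± 0.60) and Cry1 (1.04 ± 0.44). Within males 0 of 10 were called (7.45% of all genes), and 2 had an unadjusted p under 0.05 (24.1% of all genes), Bmal1 (2.81 ± 1.13) and Npas2 (3.21 ± 1.24). Those female values include Het_F_115. Without it, 2 Het and 3 KO females were left, and 2 of 10 members were called beside 6.55% of all genes, Bmal1 as higher (3.19 ± 0.74, adjusted p = 0.0374) and Dbp as lower in KO females (-2.65 ± 0.37, adjusted p = 0.00676). At an unadjusted p under 0.05 there were then 5 members, these and Clock (0.60 ± 0.24), Per3 (-1.34 ± 0.36) and Cry1 (1.53 ± 0.45), beside 26% of all genes. Het_F_115 was left out because these same genes stood apart in it, which narrows their Het spread by construction. The calls without it therefore describe only the other females, and the shares of all genes are no fair measure for them.

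The spread between livers of the same group was wide for most members. The SD of log2 CPM within groups was 2.03 for Dbp, which ranked 83 of 19350 genes, 1.57 for Per3 (rank 201), 1.48 for Npas2 (rank 231), 1.45 for Bmal1 (rank 241), 1.12 for Nr1d1 (rank 543) and 1.07 for Per2 (rank 631), against a median of 0.35 over all genes. It was 0.80 for Per1, 0.63 for Cry1, 0.57 for Nr1d2 and 0.43 for Clock. Over the 6 Het livers the SD of Dbp was 2.83 and that of Per3 was 2.06, and without Het_F_115 they were 0.18 and 0.28. Over the KO livers the SD was 1.16 for Dbp and 0.73 for Per3. Per2 had an SD of 1.22 over the 6 Het livers, 0.23 without Het_F_115 and 0.76 over KO livers, and Bmal1 one of 1.70, 0.53 and 0.97. For Per1 these were 0.95, 0.85 and 0.42. Leaving out a liver because it stands apart lowers the SD of its group by construction, while KO_M_118 stayed in the KO group, so the SDs without Het_F_115 are not set against those of KO livers.

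**Figure D4:**
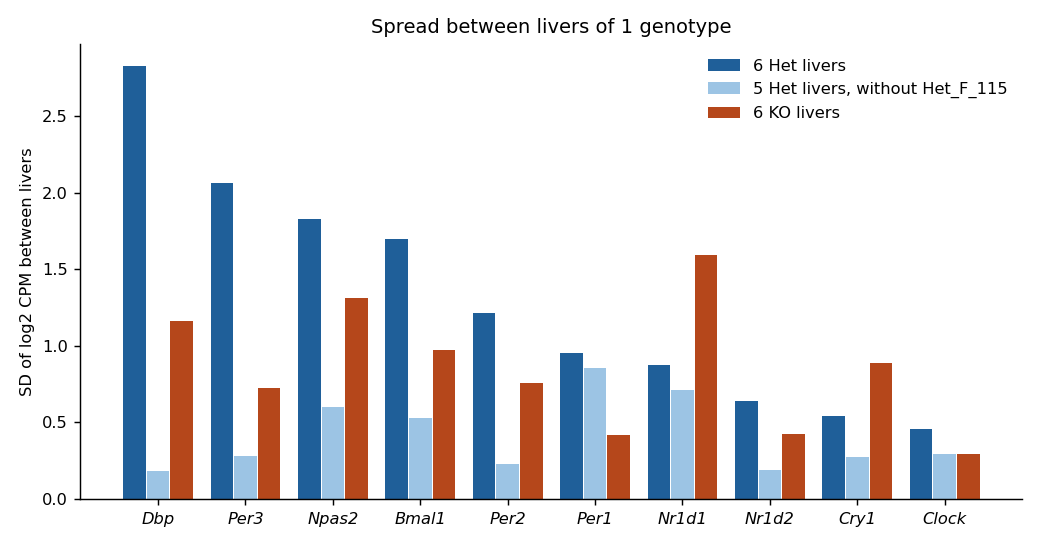
SD of log2 CPM between livers (vertical axis) for each core clock gene over the 6 Het livers, the 5 Het livers without Het_F_115 and the 6 KO livers. In Dbp the SD was 2.83, 0.18 and 1.16.

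How the members moved together from liver to liver was measured by the correlation of each with Bmal1 over the 12 livers, after the mean of each genotype and sex group was removed. Clock followed Bmal1 most closely, with Pearson's r = 0.96 (exact permutation test within groups, two-sided, p = 0.00231, adjusted p over the 9 relations 0.0208) and Spearman's rho = 0.96 (exact permutation p = 0.00154, adjusted p = 0.0139). Without Het_F_115 and KO_M_118, the livers farthest from the median of Bmal1, r was 0.92. With 1 liver left out r stayed between 0.91 and 0.97, while its adjusted p was 0.0625, above the threshold, without any 1 of Het_F_115, Het_M_119, Het_M_125, Het_M_137, KO_F_108, KO_M_118, KO_M_122 and KO_M_136. Leaving out a liver leaves fewer arrangements to permute than the 1296 of all 12 livers, so p moves in coarser steps there. The adjusted p values with and without a liver are therefore not on the same footing.

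The other relations with Bmal1 did not pass the correction. Dbp (r = -0.89), Per3 (-0.86), Per2 (-0.84), Nr1d2 (-0.75) and Per1 (-0.69) ran against Bmal1 and Npas2 (0.84) and Cry1 (0.67) with it, each with an adjusted exact permutation p of 0.110 to 0.112 (raw p from 0.0278 to 0.0995), and the rho values were -0.73, -0.60, -0.66, -0.57, -0.70, 0.70 and 0.62 in the same order (adjusted p from 0.118 to 0.203). Nr1d1 showed no relation (r = -0.15, rho = 0.03, adjusted p = 0.680 and 0.927). Without the 2 farthest livers r was -0.81 for Dbp, -0.72 for Per3, -0.66 for Per2, -0.51 for Nr1d2, -0.59 for Per1, 0.67 for Npas2, 0.47 for Cry1 and 0.06 for Nr1d1. The relations rested in part on Het_F_115. Over the 11 livers without it, r was -0.31 for Nr1d2, -0.45 for Per3, -0.49 for Per2 and -0.70 for Dbp. The adjusted exact permutation p ranged there from 0.346 to 0.632 over the 8 relations other than that of Clock. Within the other 5 Het livers (not centred) the sign turned for Dbp (0.33), Per3 (0.28) and Cry1 (-0.10). It stayed for Per2 (-0.39), Nr1d2 (-0.66), Per1 (-0.76) and Npas2 (0.40), and r was 0.87 for Nr1d1. Within the 6 KO livers r was -0.58 for Dbp, -0.615 for Per3, -0.38 for Per2, -0.24 for Nr1d2 and -0.21 for Per1. It was 0.42 for Npas2, 0.55 for Cry1 and -0.09 for Nr1d1. These values within a genotype were not tested.

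**Figure D5:**
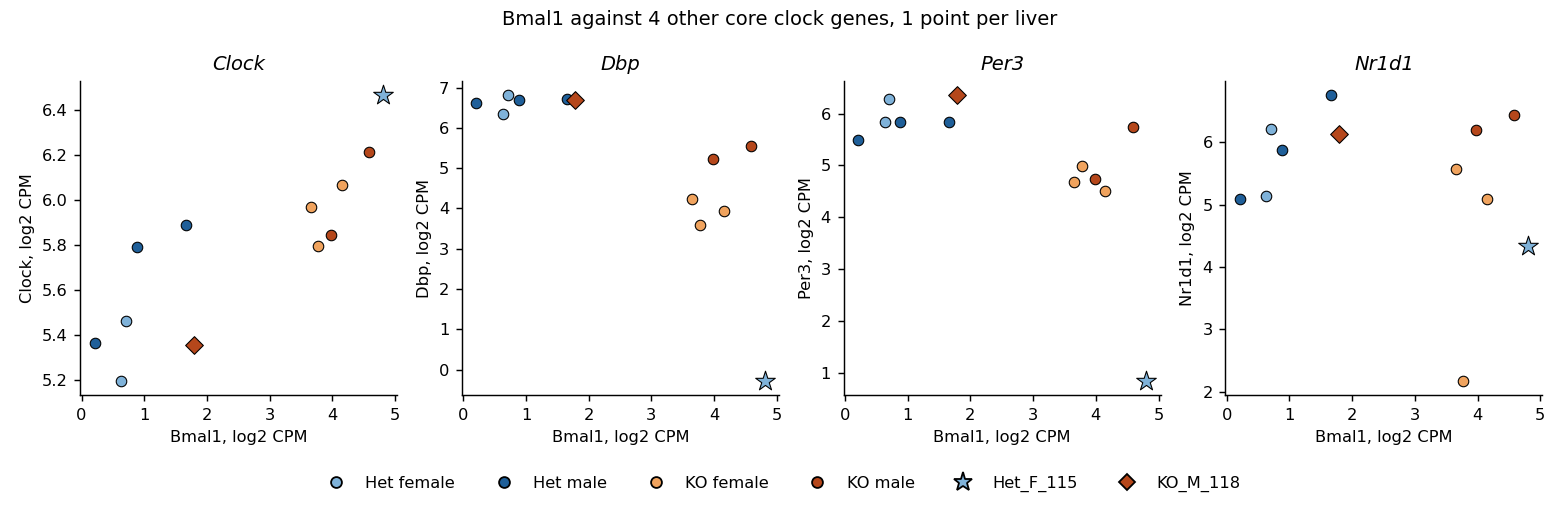
Log2 CPM of Bmal1 (horizontal axis) against Clock, Dbp, Per3 and Nr1d1 (vertical axes), 1 point per liver. Clock rose with Bmal1 in both genotypes. For Dbp the 5 low-Bmal1 Het livers and KO_M_118 (diamond) sit together at the top. The other 5 KO livers lie in the middle and Het_F_115 (star) at the bottom. Per3 gave the same order, except that KO_M_136 lay among those Het livers.

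Of 11898 genes with a mean log2 CPM of at least 1, other than the members, those whose group-centred pattern over the 12 livers was most like Bmal1 were Gpatch4 (r = 0.94), Fat1 (0.93), Zbed4-ps2 (0.93), Stat5a (0.92) and Tars (0.92), and those most opposite were Rbfa (-0.95), Pcsk4 (-0.94), Cpeb1 (-0.93), Grtp1 (-0.93) and Gm16867 (-0.93). Without Het_F_115 these values ranged from 0.76 to 0.88 and from -0.83 to -0.88. Zbed4-ps2, a pseudogene that may share reads with its parent gene, was at 74.4 CPM in Het_F_115 and at most 6.51 CPM elsewhere. All genes were read in the same libraries with the same scaling, so these are descriptions with no test.

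The wider clock machinery was read from a list of 24 further clock genes, of which 23 were tested. For genotype, 6 were called higher and 4 lower in KO livers, beside 12.2% and 10.2% of all genes, with a median log2 fold change of 0.10 against 0.02 over all genes. Among those higher were Cry2 (1.27 ± 0.28, adjusted p = 0.0107), the second cryptochrome, Nfil3 (1.24 ± 0.31, adjusted p = 0.0175), the repressor that competes with DBP at D-boxes, the kinases Csnk1e (0.62 ± 0.13) and Csnk1d (0.43 ± 0.09) that phosphorylate PER proteins, and Bmal2 (0.77 ± 0.26, adjusted p = 0.0498), a relative of Bmal1. Lower were Hlf (-0.87 ± 0.18, adjusted p = 0.00664), a relative of DBP, Prkaa2 (-0.45 ± 0.11), a subunit of the kinase AMPK that acts on CRY proteins, and Ncor1 (-0.34 ± 0.08) and Hdac3 (-0.33 ± 0.08), the corepressor and deacetylase recruited by REV-ERB proteins.

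Some of these called genes lay close together within a genotype and others did not. Csnk1d measured 47.7 to 54.8 CPM in Het and 64.2 to 90.5 CPM in KO livers, and Ncor1 measured 142 to 181 and 117.6 to 125.9 CPM. Neither overlapped, as was also so for Csnk1e and Hdac3, beside 9.35% of all genes tested. Cry2 measured 22.8 to 64.9 CPM in Het and 57.9 to 232 CPM in KO livers, and Nfil3 measured 9.94 to 23.8 and 13.8 to 121 CPM. Het_F_115 lay outside the other Het livers for 14 of these 23 genes, beside 42.1% of all genes tested. Each other liver lay outside its own genotype for 2 (Het_M_137) to 13 (KO_F_108) of the 23, beside 21.8% to 51.2% of all genes. In Het_F_115, Tef, another relative of DBP, was at 48.1 CPM against 204 to 260 CPM in the other Het livers. Usp2 was there at 4.44 against 19.4 to 55.6 CPM (neither gene was called). The count called was 8 to 10 with any 1 liver left out and 9 without Het_F_115. Many liver genes are read out from the clock, and of 20 such output genes 3 were called higher, Por (0.93 ± 0.23), Avpr1a (0.87 ± 0.23) and Cyp2a5 (1.48 ± 0.47), and 3 lower, among them Elovl3 (-4.61 ± 0.46) and Ppara (-1.37 ± 0.23). These counts stood beside 12.2% of all genes called higher and 10.2% called lower, which is near the share of this list. Their median log2 fold change was -0.20. There were 8 called without Het_F_115 and 3 without KO_M_136.

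Food, glucocorticoids and body temperature can each set the phase of a liver clock, and genes that read these out were counted in the same way, beside the 12.2% of all genes called higher and 10.2% called lower. Of 12 glucocorticoid-responsive genes, Fkbp5 was called higher (1.22 ± 0.24, adjusted p = 0.00518) and the median log2 fold change was 0.77. There were 2 called without Het_F_115 and 5 without Het_M_119. Of 12 fasting-induced genes, 1 was called higher, Irs2 (1.59 ± 0.48), and 2 lower, among them Fgf21 (-1.92 ± 0.52), with 5 called without Het_F_111 or Het_M_119 and 1 without KO_F_108. The shares of these lists were below or near those of all genes. Of 10 feeding-induced genes of fat synthesis, 5 were called lower, with the smallest p for Me1 (-1.67 ± 0.19), Srebf1 (-1.17 ± 0.24) and Scd1 (-1.70 ± 0.43) and a median of -0.98, and 3 were called without any 1 of Het_F_111, Het_M_119, Het_M_137, KO_F_112, KO_M_118 or KO_M_136. Of 10 temperature-responsive genes, the cold-induced Cirbp (1.23 ± 0.19) and Rbm3 (1.27 ± 0.21) were called higher. Lower were 6 heat shock genes, with the smallest p for Hspa1b (-2.38 ± 0.49), Bag3 (-1.08 ± 0.24) and Hspb1 (-1.23 ± 0.28). KO and Het livers did not overlap for Cirbp, Rbm3, Hspa1b and Bag3, beside 9.35% of all genes tested. Cirbp and Rbm3 were at 13.2 and 34.9 CPM in Het_F_115, within the other Het livers (10.2 to 17.3 and 27.1 to 44.3 CPM). The part of feeding, hormones, temperature and hour of collection in the clock gene levels was not tested.

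Markers of cell types were counted beside the 22.4% of all genes called in either direction, and for hepatocytes, cholangiocytes, lymphocytes and erythroid cells the share was near or below it. Of 8 hepatocyte markers 2 were lower, and all 8 were abundant, summing to 72510 to 94080 CPM in Het and 87260 to 144000 CPM in KO livers. Of 6 Kupffer cell markers 3 were higher, summing to 89.7 to 248 CPM in Het and 132 to 414 CPM in KO livers, of 6 sinusoidal endothelial markers 4 were lower (171 to 318 and 118.8 to 210.5 CPM), and of 6 stellate cell markers 3 were lower (226 to 444 and 120 to 238 CPM). Of 5 tested cholangiocyte markers and 7 lymphocyte markers 0 were called, at 30.1 to 60.8 against 16.1 to 51.9 CPM and at 1.47 to 4.71 against 0.806 to 4.58 CPM. Of 3 tested neutrophil markers 1 was higher (0.423 to 2.93 and 1.65 to 3.25 CPM) and of 5 tested erythroid markers 1 was lower (133 to 523 and 108.1 to 260 CPM). No marker was at 0 in all livers. Het_F_115 had the highest erythroid sum (523 CPM, against 133 to 346 CPM in the other Het livers), from Hbb-bs (244 against 35.8 to 112.5 CPM) and Hba-a1 (218.5 against 15.9 to 58.0 CPM), while its Hba-a2 was the lowest of the Het livers (7.60 against 16.4 to 64.3 CPM) and Alas2 lay within them (20.6 against 19.4 to 106.9 CPM). The hemoglobin alpha genes are near-identical copies, so how reads were divided between them is uncertain. Its neutrophil sum (2.93 against at most 1.27 CPM) and hepatocyte sum (94080 against at most 91510 CPM) were above the other Het livers and within the range of KO livers, and its Kupffer, endothelial and stellate sums lay within those of the other Het livers. The part of these cell types in the clock gene levels was not tested.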

How the data were processed

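Livers of 12 mice were analysed, 3 in each group of genotype and sex, by RNA-seq of total RNA depleted of ribosomal RNA (stranded, paired reads). The authors ran the nf-core pipeline, with STAR 2.7.9a as aligner to GRCm39 and Salmon 1.10.1 for counts of the GENCODE M34 genes. The deposited estimated counts per gene were used for all main results after rounding (12% of the values were not whole), and the deposited TPM, which keep no depth, for levels between genes and for alternatives. The authors' length-scaled and TPM-scaled estimated counts served as alternatives.

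Genes with at least 5 reads, after library scaling, in at least 3 samples were kept. A mean per group was fitted with edgeR 4.0.16 in R 4.3.3 (TMM scaling, robust quasi-likelihood test, prior count 2), and Benjamini-Hochberg adjusted over 19350 genes, with calls under 0.05. The filter, model, prior count and robust option follow the study's methods, but the newer quasi-likelihood method was used, where that edgeR version defaults to the older one (4175 genes and 0 members called for genotype, against 4330 and 0). Standard errors and 95% intervals follow from the F statistic. Genotype and sex contrasts average over the other factor. The fit was tried on simulated counts with no outlying liver and a spread that followed the trend over all genes. This does not cover genes as variable as most members. DESeq2 1.42.0, limma 3.58.1 on log2(TPM + 1) and log2(TPM + 0.1), other filters and scalings, no interaction term, each sex alone and leaving out each mouse were alternatives. The older quasi-likelihood method, leaving out each mouse in the list counts, and leaving out Het_F_115 within females were added after seeing the data. Pairs of livers of 1 group differed beyond sampling noise (chi-square per degree of freedom 86.8 to 226), so each counts as 1 replicate.

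The members and gene lists were chosen with earlier results of these data known. Text names all members, up to 12 other clock genes called (smallest p first), up to 3 called per direction of each other list, the 5 genes most and least like Bmal1, and Xpa and Ercc8. Some genes that this rule names are not reported here. Tef, Usp2, the erythroid genes named and genes named in the closing section were chosen after their values were seen. Promoters were read from GRCm39 with GENCODE M39, a later release than the authors' M34. Of the gene names, 233 are shared by several identifiers, none of them a member. Counting limits precision most for Npas2. It also adds to the uncertainty of Bmal1 in the Het livers other than Het_F_115 (33 to 97 counts). The same holds for Dbp (30 counts) and Per3 (68 counts) in Het_F_115.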

Additional observations from a re-analysis of the deposited data

Results flagged for a closer look

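In groups of 6 livers of 1 genotype, the gap between an extreme liver and its nearest neighbour was compared with the range of the group on the log2 CPM scale, by Dixon's test. Of 20 groups tested (10 members in 2 genotypes), 8 passed the 95% critical value, where chance passes about 1 in 20 with normally distributed values. The share of all genes that pass was not computed, and the 10 members are not independent of each other. The count of 8 is therefore not read as an excess among clock genes. Het_F_115 lay outside the other Het livers for 42.1% of all genes tested. Among Het livers the liver that stood apart was Het_F_115 in each of 6 members. It was high in Bmal1 (27.9 CPM, gap over range 0.685) and Npas2 (3.67 CPM, 0.754). It was low in Nr1d2 (47.1 CPM, 0.742), Per2 (5.28 CPM, 0.820), Per3 (1.74 CPM, 0.854) and Dbp (0.765 CPM, 0.934). Among KO livers, KO_M_118 stood apart with a low Bmal1 (3.40 CPM, 0.667) and KO_F_112 with a low Nr1d1 (4.46 CPM, 0.685). For KO_F_112, Nr1d2 (95.9 CPM) lay within the other KO livers (76.2 to 172 CPM), so that the REV-ERB genes parted there, and its Cry1 (26.4 CPM) and Per2 (59.1 CPM) were the highest of the KO livers.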

How the results depend on the processing

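Of the members, 0 were called for genotype in the main analysis and with unrounded counts, no filter, relative log expression, upper quartile or library size scaling, the older quasi-likelihood method, or within either sex. The count was 1, Per1, with length-scaled or TPM-scaled counts, at least 10 reads in every sample, no robust estimation, no interaction term, DESeq2 and limma on either log2 TPM, and 0 to 3 with 1 liver left out. Within females it was 2, Bmal1 and Dbp, without Het_F_115, the liver left out because these genes stood apart in it. The counts for sex and the interaction stayed at 0. With an adjusted p under 0.01, calls were 3 of the other clock genes, 2 clock output genes and 1 glucocorticoid-responsive gene. They were also 1 fasting-induced, 2 feeding-induced and 4 temperature-responsive genes, since fewer genes pass a stricter threshold. The share of all genes under 0.01 was not computed, so these counts are not compared with it. With 1 liver left out, calls ranged from 3 to 8 clock output, 1 to 5 glucocorticoid-responsive, 1 to 5 fasting-induced and 3 to 6 feeding-induced genes. Of all genes, 18.5% were called without Het_F_111, 18.8% without Het_M_119 and 20.2% without Het_F_115.

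Signs of uncalled log2 fold changes reversed for genotype within females in Npas2 (-0.751), Nr1d2 (0.0954) and Per2 (0.0373), within males in Nr1d1 (0.198) and Per3 (0.0277), and with log2(TPM + 0.1) in Per3 (0.0912). For the interaction they reversed in Clock with length-scaled (-0.0229) and TPM-scaled counts (-0.0266), log2(TPM + 1) (-0.000302) and log2(TPM + 0.1) (-0.0126), and with the last also in Per3 (-0.137) and Dbp (-0.293). With 1 liver left out, genotype values ranged from -0.485 to 0.117 in Nr1d1 and from -0.322 to 0.0548 in Nr1d2. Sex values ranged from -1.49 to 0.156 in Bmal1, -0.242 to 0.117 in Clock, -1.39 to 0.0732 in Npas2, -0.0707 to 0.318 in Nr1d2, -0.570 to 0.236 in Per1 and -0.489 to 0.0963 in Per2. Interaction values ranged from -0.398 to 2.82 in Bmal1, -0.465 to 0.253 in Clock, -0.729 to 0.0271 in Nr1d2 and -1.35 to 0.265 in Per1. The correlation with Bmal1 ranged from 0.912 to 0.974 for Clock and from -0.290 to 0.256 for Nr1d1. Apart from the threshold, the cause of these changes was not tested. No paired analysis was possible because each mouse has its own number and no number is shared between groups.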

Other observations

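Some output and stress genes of Het_F_115 also lay outside the range of the other Het livers, as did 42.1% of all genes tested. Those named here were chosen after their values were seen. Cdkn1a, a cell cycle inhibitor controlled by the clock and by p53, was at 108.2 CPM there against 0.288 to 4.76 CPM in the other Het livers and 3.42 to 50.1 CPM in KO livers. Insig2, a regulator of sterol synthesis, was at 511 against 69.4 to 184 CPM, with 198 to 313 CPM in KO livers. Cyp7a1, the rate-limiting enzyme of bile acid synthesis, was at 604 against 44.5 to 169 CPM, with 70.2 to 225 CPM in KO livers. The metallothionein genes Mt1 (616 against 2.62 to 212 CPM) and Mt2 (259 against 0.448 to 40.0 CPM) were likewise high, with 235 to 791 and 83.0 to 352 CPM in KO livers. None of these 5 genes was called for genotype over the 12 livers (adjusted p of 0.245, 0.342, 0.931, 0.123 and 0.0564 in this order). Over the 11 livers without Het_F_115, Cdkn1a (log2 fold change 3.27, adjusted p = 0.00597), Insig2 (1.05, adjusted p = 0.0276) and Mt2 (4.14, adjusted p = 0.0257) were called higher in KO livers. Cyp7a1 (0.67, adjusted p = 0.240) and Mt1 (2.75, adjusted p = 0.0842) were not. Of all genes, 10.4% were called higher in those 11 livers. The 5 genes were picked as high in Het_F_115, so leaving it out lowers their Het level by construction.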
